A study of Homo sapiens with 2 samples.

Results

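NUDT21 eCLIP-seq peaks that lay in 3'UTRs close to the annotated ends of coding transcripts were examined in J-Gamma1 cells. A peak was taken as pure 3'UTR when its midpoint lay in a 3'UTR and in no coding sequence (CDS) of the protein-coding genes of GENCODE 44, readthrough genes left out. It was taken as a near-end peak when its midpoint also lay within 150 nt of an annotated 3' end of a protein-coding transcript of that gene. This rule gave 640 near-end peaks, which made up 17.0% (95% exact Clopper-Pearson interval 15.8 to 18.2) of the 3770 pure 3'UTR peaks and 3.12% of the 20499 peaks of the list. They lay in 560 genes, which is 12.8% of the 4388 genes with a peak in any exon. Only position chose these peaks, so their strength and their sequence were free to vary.

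J-Gamma1 is an established cell line of acute lymphoblastic leukemia of T cells (T-ALL) that supplied both libraries of the series, 1 made with a NUDT21 antibody and 1 of input. In eCLIP-seq, ultraviolet light joins a protein to the RNA it touches, an antibody recovers the complexes and the RNA fragments are sequenced. All values come from the deposited peaks of the antibody library, and whether the input entered their fold enrichment and p-values is not given in the sources used here. As replicates and read totals were lacking, depth was unknown, no difference was tested and each interval covers counting error only.

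Most human mRNAs are cut and polyadenylated at a site that lies shortly after the hexamer AAUAAA or its variant AUUAAA, the poly(A) signal. NUDT21 is the subunit of cleavage factor I that recognises UGUA, an element known to act upstream of the cleavage site, and many genes have several sites, whose choice sets the length of the 3'UTR. Annotation catalogues record each known transcript end, and one transcript per gene is marked as canonical.

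The 6 peaks given first had the highest fold enrichment among those whose canonical end had both motifs. These were UGUA 40 to 100 nt upstream and a poly(A) signal in the last 40 nt. The set was thus chosen by its motifs, and after the values had been seen. Both motifs were at 37.6% (29.6 to 46.1) of the canonical ends with a near-end peak and at 38.7% (37.3 to 40.2) of those without. For each gene, 30 nt around the UGUA are followed by 30 nt that hold the poly(A) signal, read 5' to 3' on the gene strand of hg38 with the motif in capitals.
CD3E UGUA, chr11:118316072-118316101, plus strand: accccccctccacTGTAggccactggatgg
CD3E signal, chr11:118316142-118316171, plus strand: gagagaaaaaAATAAActgtatttggctgc
SLC38A2 UGUA, chr12:46358219-46358248, minus strand: ttcaatgaaacaaTGTAtgtttgttttaac
SLC38A2 signal, chr12:46358188-46358217, minus strand: gaactaaAATAAAtacatgcttaatcctga
SPN UGUA, chr16:29670809-29670838, plus strand: gtttatgctcttcTGTAttttccgaatttc
SPN signal, chr16:29670843-29670872, plus strand: AATAAAtatctgttacttttacaatatgaa
MAP1A UGUA, chr15:43531552-43531581, plus strand: agttcccagctgcTGTAacggagccacctc
MAP1A signal, chr15:43531582-43531611, plus strand: caactctaacAATAAAccaagttcattgca
LYAR UGUA, chr4:4267765-4267794, minus strand: tgctttttgaagcTGTAtttttaagttaag
LYAR signal, chr4:4267704-4267733, minus strand: aaAATAAAatatattctggtccaaacttct
CD164 UGUA, chr6:109366549-109366578, minus strand: tgcaaaaccaatcTGTAtcaTGTAccaaac
CD164 signal, chr6:109366518-109366547, minus strand: gacttaaAATAAAtctacatgtttattgaa

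In CD3E, a subunit of the T-cell receptor complex, the UGUA began 86 nt and the AAUAAA 19 nt before the nearest end. The peak, with a fold enrichment of 4.54, ran from 243 to 18 nt upstream of the end and covered the UGUA. In CD164, a sialomucin, a pair of UGUA copies began 47 and 40 nt before the end, inside a peak of 2.94-fold enrichment. In MAP1A, a microtubule-associated protein, and LYAR, a nucleolar protein, the peaks (3.09 and 2.94-fold) also covered a UGUA of the window. The UGUA of the window lay outside the peak in SLC38A2, an amino acid transporter, and in SPN, which encodes the leukocyte surface protein CD43. The SLC38A2 peak (3.48-fold) instead covered 3 UGUA copies farther upstream, and the SPN peak (3.24-fold) covered none.

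The peaks of highest fold enrichment among all near-end peaks mostly lay nearest to ends without these motifs. Most ends with any near-end peak lacked them too, since 36.2% had a poly(A) signal and 30.2% UGUA in the same windows. Of the 12 highest, the end nearest to the peak carried a poly(A) signal in its last 40 nt in CD3E, CMSS1 and ATAD1 only. The last 30 nt before the nearest end are shown for the others, which hold no AAUAAA or AUUAAA, and for CMSS1 and ATAD1 with the signal in capitals.
PTMA end, chr2:231713079-231713108, plus strand: tttttttcttaaaagtactttaaaaaggaa
PTMA upstream end, chr2:231712827-231712856, plus strand: gcagaagaccgacgaggatgactagacagc
PRKCSH end, chr19:11450838-11450867, plus strand: cctccctgggccccccaccttggtgactcg
SRSF11 end, chr1:70251588-70251617, plus strand: ctatcctgagtctatcttaaaggaaaaaaa
NPM1 end, chr5:171410784-171410813, plus strand: gaatgttatgataggacatagtagtagcgg
CMSS1 end, chr3:100178570-100178599, plus strand: cttatatAATAAAgtatcaccggcttgtgt
ATAD1 end, chr10:87753117-87753146, minus strand: ataaatgtgtAATAAAggggtccctcttta
SRSF5 end, chr14:69769615-69769644, plus strand: tacagtgatcagttggccacctctagatct
SET end, chr9:128695140-128695169, plus strand: tttaaaaaaagaaaaaaaaacttaaaaaaa
SRP14 end, chr15:40036243-40036272, minus strand: cagatagctaggtttctggttcccccacag
PSME3IP1 end, chr16:57154279-57154308, minus strand: cttcctcgaggccccctagtttctccgtcc

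The SET end was the single one of these besides CD3E with UGUA in the window of 40 to 100 nt upstream, 51 nt before the end and inside the peak. PSME3IP1, which encodes a protein that binds a proteasome activator, and SRSF5, an SR splicing factor, had UGUA in the peak but outside that window.
PSME3IP1 UGUA, chr16:57154417-57154446, minus strand: ctctgctgcagtaTGTAtcggcatcctccc
SRSF5 UGUA, chr14:69769740-69769769, plus strand: agacctgtcttccTGTAacgcttccgaata
SET UGUA, chr9:128695105-128695134, plus strand: gcatttaccaacaTGTAtctgtctactttc

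**Figure D1:**
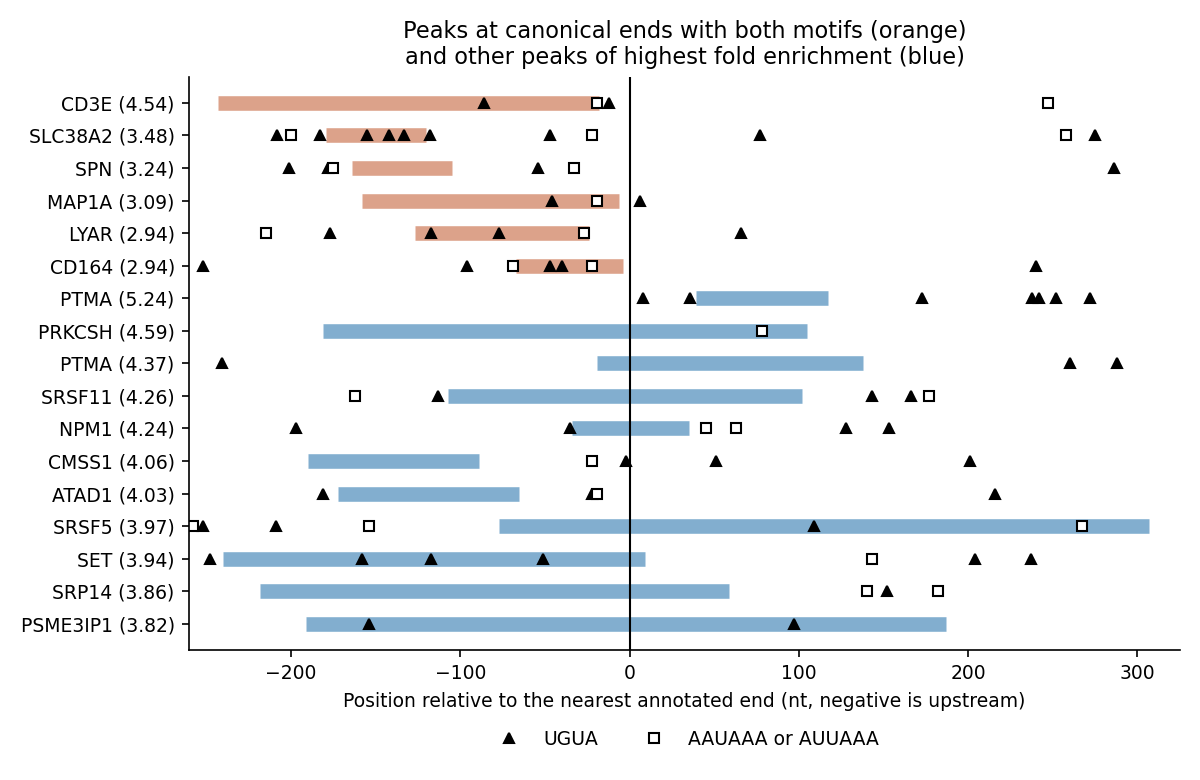
Extent of the 6 peaks at canonical ends with both motifs (orange) and of the other 11 of the 12 peaks with the highest fold enrichment (blue), in nt from the nearest annotated end (vertical line), with the fold enrichment in parentheses. Triangles mark the start of UGUA and squares the start of AAUAAA or AUUAAA on the gene strand, and the orange peaks end before the line while 8 of the blue peaks cross it.

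Near-end peaks were slightly stronger and shorter than the other 3130 pure 3'UTR peaks. Their fold enrichment had a median of 2.09 (quartiles 1.61 and 2.46, range 1.17 to 5.24) against 1.94 (quartiles 1.39 and 2.37). Score, the height of the pileup as deposited, took whole steps of 0.228, and 66.7% (62.9 to 70.4) of the near-end peaks had 5 or more steps, against 54.9% (53.2 to 56.7). At 9 or more steps these shares were 27.3% and 17.0%. Read the other way, near-end peaks made up 12.1% of the pure 3'UTR peaks of 1 step and 24.7% of those of 9 or more steps, and the shares rose at each class between. The median length was 92 nt against 117 nt, and the median GC content was 41.0% against 41.2%.

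Peaks after stop codons were as strong. The 291 other pure 3'UTR peaks within 150 nt after a stop codon had a median fold enrichment of 2.16, and 73.5% of them had 5 or more steps. Of the near-end peaks themselves, 166 (25.9%) lay that close to a stop codon too. Few pure 3'UTR peaks of any kind were strong by the deposited FDR. It was under 1 for 7 of the 640 near-end peaks (1.09%) and 9 of the 3130 others (0.288%). The latter included 4 of the 291 after stop codons (1.37%). The lowest FDR was 0.218 among the near-end peaks and 0.0518 among the others.

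Per length of 3'UTR and pooled over genes, peaks were denser close to ends. Over the genes with a pure 3'UTR peak, 640 peaks in 1066 kb within 150 nt of ends gave 0.601 peaks per kb. The rest of the 3'UTR sequence outside CDS had 0.440 per kb, a ratio of 1.37 (1.25 to 1.49). The density was 0.552 per kb within 49 nt of an end, 0.647 from 50 to 99 nt and 0.614 from 100 to 150 nt. It was 0.493 from 151 to 199 nt, 0.610 from 200 to 299 nt and 0.333 from 2000 nt on, so that the value at 200 to 299 nt was close to that within 150 nt and the lowest was farthest away. These pooled values mix genes whose 3'UTRs differ in length and density. Genes with 3'UTRs from 3001 nt on had 0.384 peaks per kb near ends and 0.346 farther away. Those with 301 to 1000 nt had 1.63 and 1.23 per kb.

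The ratio was not the same across lengths of 3'UTR. In the 30 genes with a 3'UTR of up to 300 nt it was 3.69, and in the 245 genes with 301 to 1000 nt it was 1.32. In the 883 genes with 1001 to 3000 nt it was 1.02, and in the 949 genes with longer 3'UTRs it was 1.11. These last classes held 273 and 215 of the 640 near-end peaks. With 1 transcript per gene the ratio was 1.04.

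With 1 transcript per gene, distance from the canonical end gave another profile. There the 3'UTRs and CDS were those of the canonical transcript alone, so the peaks and the sequence differed from those above. Within 49 nt of canonical ends there were then 32 peaks, or 0.328 per kb, against 0.711 per kb from 50 to 99 nt, 0.688 from 100 to 150 nt and 0.729 from 200 to 299 nt. In the set of near-end peaks used elsewhere, 33 had midpoints 1 to 50 nt before a canonical end. Of these, 15 had 5 or more steps and the median fold enrichment was 1.61. From 51 to 100 nt these values were 43 of 64 and 2.00, and from 101 to 150 nt they were 43 of 66 and 2.07. The peaks closest to canonical ends were thus sparser in the first of these sets and weaker in the second. Both readings rest on small counts, and no interval was computed for them. The 166 near-end peaks at canonical ends had a median length of 78.5 nt, so one with its midpoint that close to the end can reach past it. The part of this limit in the difference was not tested.

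**Figure D2:**
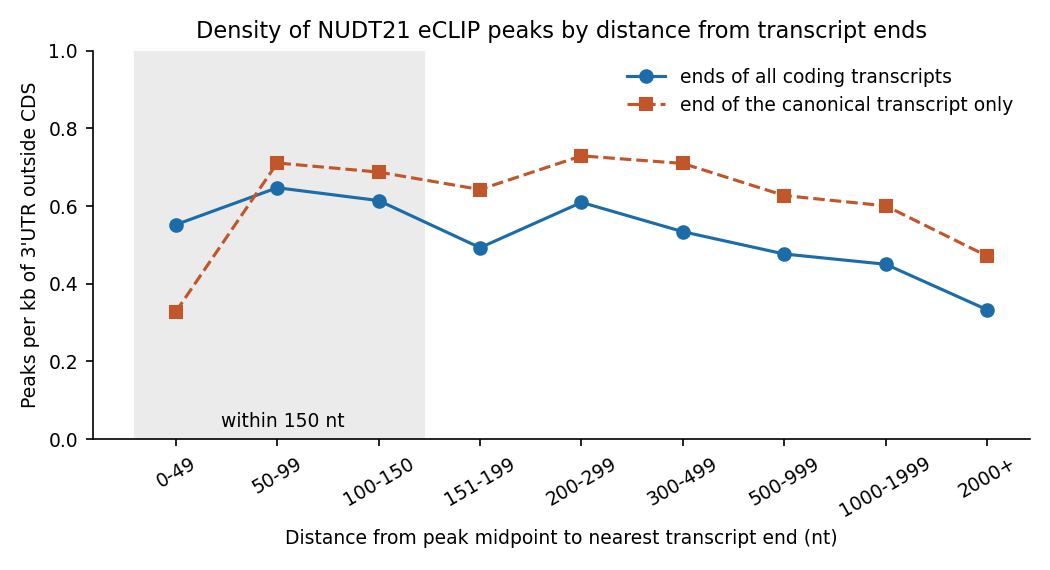
Pure 3'UTR peaks per kb of 3'UTR outside CDS, by the distance in nt from the peak midpoint to the nearest end of any coding transcript (circles) or to the end of the canonical transcript (squares), with the range within 150 nt shaded. For the squares, 3'UTRs and CDS were those of the canonical transcript alone, so the peaks and the sequence differ from those of the circles. The circles are highest at 50 to 99 nt (0.647 per kb) and lowest from 2000 nt on (0.333 per kb), and the squares are lowest at 0 to 49 nt (0.328 per kb).

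The near-end peaks lay on both sides of the annotated ends. Midpoints of 413 (64.5%) lay at or upstream of the nearest end and those of 227 (35.5%) downstream of it, inside the 3'UTR of a longer transcript, and the median position was 33.5 nt upstream. Per kb of 3'UTR the downstream side was the denser of the pair, with 0.684 against 0.563. The sides do not cover the same ends, since 3'UTR lies downstream of an end only inside a longer transcript (332 kb against 734 kb upstream). The part of this in the difference was not tested. The peak itself crossed the end in 288 cases (45.0%), and 435 (68.0%) overlapped the stretch 40 to 100 nt upstream.

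Most near-end peaks lay at ends other than the canonical one. Of the 640, 166 (25.9%; 22.6 to 29.5) were within 150 nt of the canonical end of their gene and 474 were near another annotated end only. Of the 166, 13 (7.83%) had their midpoint downstream of the nearest annotated end, against 45.1% of the 474, a contrast that annotation sets in part, since a midpoint can lie downstream only inside the 3'UTR of a longer transcript. The peaks at other ends had a median fold enrichment of 2.11, against 1.99 at canonical ends, and 68.4% against 62.0% of them had 5 or more steps, with intervals that overlap (64.0 to 72.5 and 54.2 to 69.5).

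**Figure D3:**
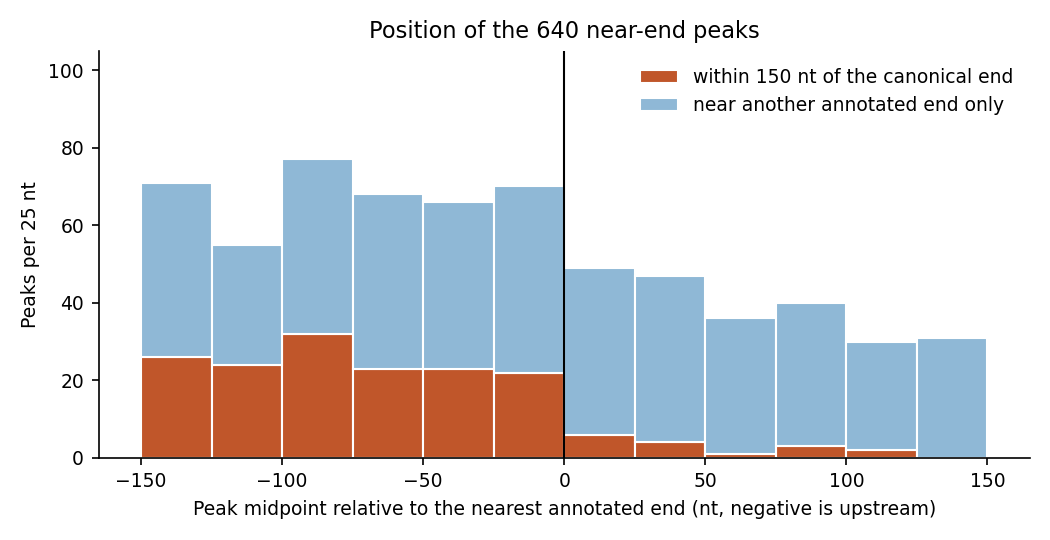
Number of near-end peaks per 25 nt, by the position of the midpoint in nt from the nearest annotated end (negative is upstream), with the 166 peaks within 150 nt of a canonical end in orange and the 474 near another end only in light blue. The orange part lies almost wholly upstream of the line, and the blue part extends over both sides.

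UGUA was found on the gene strand in 297 of the 640 peaks (46.4%; 42.5 to 50.4) and on the opposite strand in 35.5% (31.8 to 39.3). The 11 other orders of the same 4 bases were in 28.9 to 48.1% of the peaks, with a median of 34.1%. Other pure 3'UTR peaks held UGUA in 50.7% (48.9 to 52.5). Because a longer peak holds more motifs, the shares were set side by side within classes of length. They were 27.8% near ends and 28.2% elsewhere up to 78 nt, 48.1 and 46.1% in the middle class, and 72.2 and 75.9% from 181 nt on. Per kb of peak, UGUA occurred 5.90 times near ends and 5.43 times elsewhere, with 3.93 and 3.94 on the opposite strand.

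By Score, UGUA was in 56.3% of the near-end peaks of 1 step and 66.2% of those of 2 to 4 steps, against 35.3% at 5 to 8 steps and 42.9% at 9 or more steps. Length moved with these classes, with medians of 202.5, 242, 69 and 83 nt. Among peaks of up to 78 nt UGUA was in 2 of 10, 2 of 10, 43 of 158 and 24 of 77 in the order of rising steps, and among those from 181 nt on in 29 of 42, 68 of 88, 14 of 20 and 11 of 19, so that the pooled fall was not seen in the short peaks. The other pure 3'UTR peaks had nearly the same shares class by class (59.6, 65.7, 38.9 and 43.9%).

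Among near-end peaks, those at canonical ends held more UGUA per length. These 166 peaks held it 7.38 times per kb on the gene strand and 3.96 times on the opposite strand, and 50.6% (42.7 to 58.4) had at least 1 copy. The 474 peaks at other ends held it 5.43 and 3.92 times per kb, and 44.9% (40.4 to 49.5) had a copy, so that the intervals of the shares overlap. At canonical ends without a near-end peak, UGUA occurred 7.99 to 12.9 times per kb in the bins from 140 to 41 nt upstream. In the bins from 40 nt upstream to the end it occurred 8.45 and 5.51 times per kb. The part of the place before the end in the value of the peaks was not tested.

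A poly(A) signal lay inside 172 near-end peaks (26.9%; 23.5 to 30.5), against 17.4% (16.1 to 18.8) of the other pure 3'UTR peaks and 11.3% of those after stop codons. It was in 39.2% (31.7 to 47.0) of the peaks at canonical ends and 22.6% (18.9 to 26.6) of those at other ends. In the longest class, from 181 nt on, 58.0% of the near-end peaks held a signal, against 30.6% of the others. Both UGUA and a signal were in 120 near-end peaks (18.8%), against 12.3%. These differences follow in part from the rule, since the signal stands shortly before transcript ends and the peaks were chosen for lying near them.

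The ends themselves were then compared. Ends of a gene within 25 nt of each other were joined, which gave 12074 ends in the genes with an exonic peak, and 630 of them (5.22%) had a near-end peak. UGUA 40 to 100 nt upstream was found at 30.2% (26.6 to 33.9) of the ends with a peak and at 36.6% (35.7 to 37.5) of the 11444 ends without. The other orders of the bases were at 15.9 to 33.0% of the ends with a peak. A poly(A) signal in the last 40 nt was found at 36.2% (32.4 to 40.1) of the ends with a peak and at 49.7% (48.7 to 50.6) of those without. Both shares were thus lower at the ends with a peak. The UGUA intervals overlapped when the distance was 300 nt (30.9 to 36.8 against 35.6 to 37.4) or when the ends of all protein-coding genes were compared (26.6 to 33.9 against 32.6 to 33.5). They also overlapped with 1 transcript per gene (33.3 to 48.6 against 46.1 to 49.4). With the ends of decay transcripts counted, the signal was at 35% of the ends with a peak and 39.5% of those without.

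The kinds of end in both groups differed, since 22.4% of the ends with a peak were canonical, against 37.1% of those without. Among canonical ends, 141 of 4388 (3.21%) had a near-end peak. UGUA lay upstream at 41.1% (32.9 to 49.7) of these 141 and at 46.6% (45.0 to 48.1) of the other 4247, and a poly(A) signal was present at 87.9% (81.4 to 92.8) and 81.4% (80.2 to 82.6). Among other ends, 489 of 7686 (6.36%) had a peak, with UGUA at 27.0% (23.1 to 31.2) and a signal at 21.3% (17.7 to 25.2) of them. The other ends without a peak had UGUA at 30.7% (29.6 to 31.8) and a signal at 30.9% (29.8 to 32.0). Taken by kind of end, the intervals of UGUA overlapped at both kinds and those of the signal at canonical ends. At other ends the signal was less frequent with a peak, where 4.47% (3.67 to 5.39) of those with a signal and 7.18% (6.51 to 7.91) of those without had a peak.

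In the profile of UGUA by position, the highest value at the canonical ends with a peak was 16.0 per kb at 41 to 60 nt upstream, against 12.9 per kb at the canonical ends without, and in the next bin, 61 to 80 nt upstream, the order was the opposite, with 8.16 against 11.6 per kb. The poly(A) signal reached 37.2 and 34.4 per kb at 21 to 40 nt upstream of these ends. At all ends pooled, the signal reached 13.0 per kb with a peak and 19.9 per kb without.

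**Figure D4:**
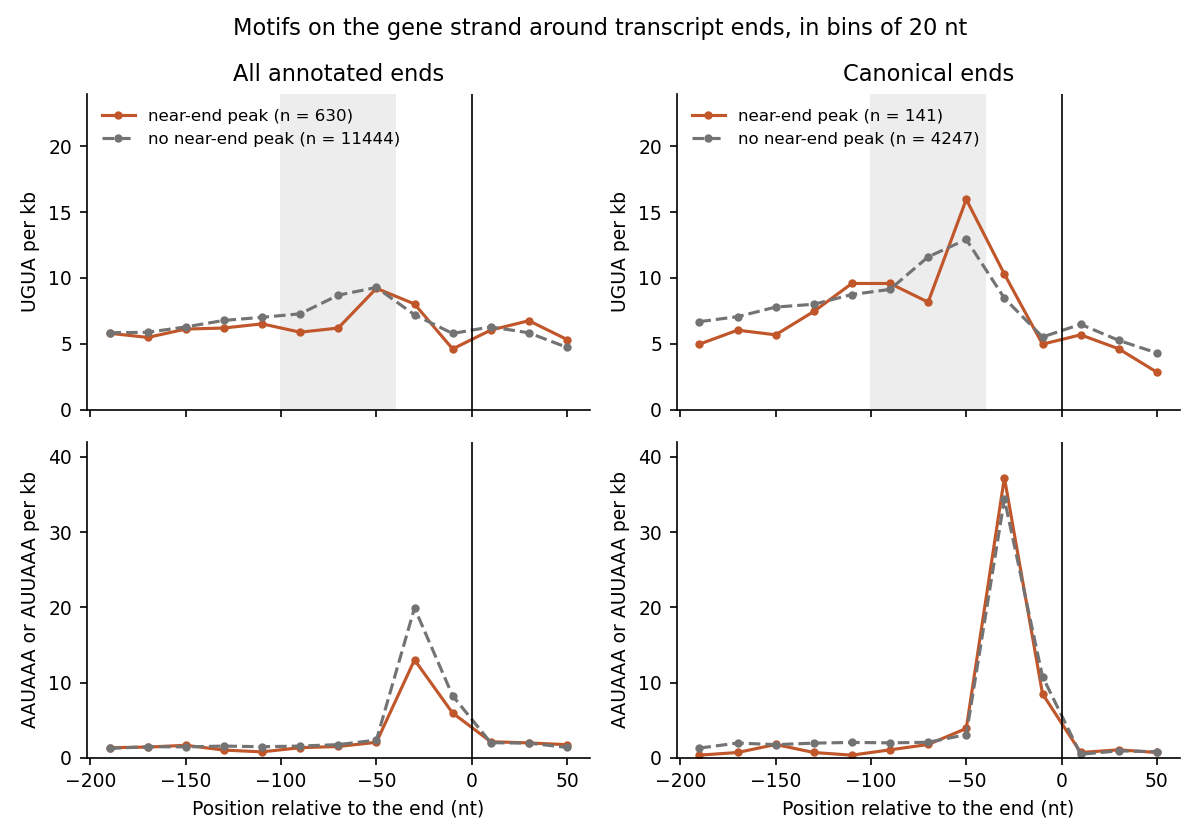
UGUA (top) and AAUAAA or AUUAAA (bottom) per kb on the gene strand, by position in nt from the end in bins of 20 nt, at all annotated ends (left) and canonical ends (right), with a near-end peak (orange) or without (grey, dashed). The window of 40 to 100 nt upstream is shaded. The signal stands at 21 to 40 nt upstream in each panel, with the 4 highest values between 13.0 and 37.2 per kb.

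In genes with several ends and a near-end peak, such peaks were found more at the most proximal end and less at the most distal one. Ends of a gene were taken as separate when more than 100 nt apart. Only genes with a near-end peak entered, which left 571 peaks in 491 genes with 1816 groups of ends. The most proximal group held 223 peaks (39.1%; 35.0 to 43.2), the groups between held 262 (45.9%; 41.7 to 50.1) and the most distal held 86 (15.1%; 12.2 to 18.3), where the groups themselves were split 27.0, 45.9 and 27.0%. Per kb of 3'UTR near these ends, the densities were 2.17, 1.31 and 1.16. As these genes were taken for having a near-end peak, these densities cannot be set beside the 0.601 per kb given above. Of the 223 peaks at the most proximal ends, 99 were within 150 nt of a stop codon, against 2 of the 86 at the most distal ends, so that the former were often close to the coding sequence. The part of this closeness in the difference was not tested. Poly(A) signals were in 42 of the 223 proximal peaks and 35 of the 86 distal peaks, and the median fold enrichments were 2.16 and 2.08.

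**Figure D5:**
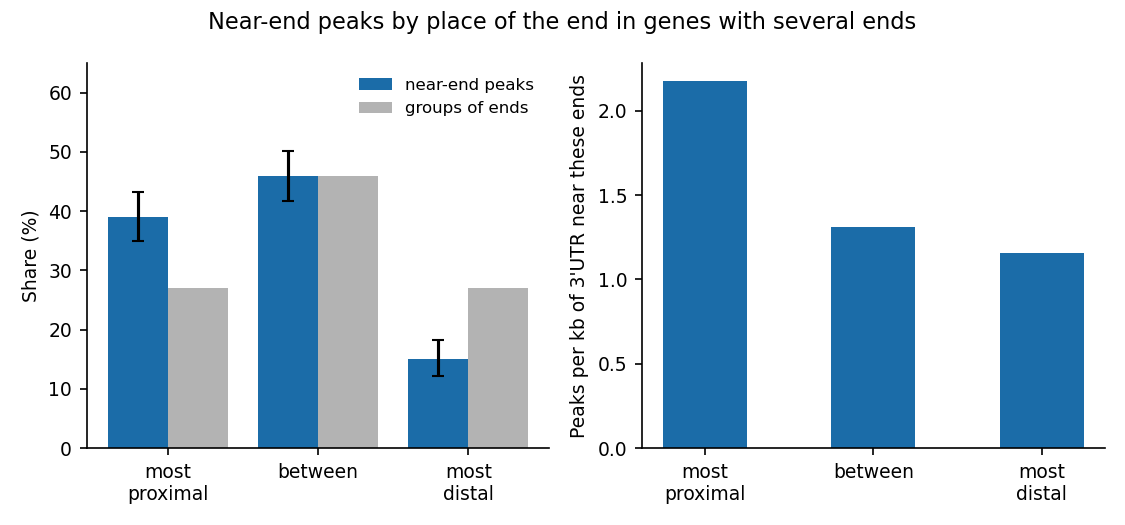
Left, share in % of the near-end peaks (blue, with 95% exact Clopper-Pearson intervals as error bars) and of the groups of ends (grey) by the place of the end in 491 genes with several ends. Only genes with a near-end peak were included. Right, near-end peaks per kb of 3'UTR near these ends. The peaks exceed the groups at the most proximal end (39.1 against 27.0%) and fall short at the most distal end (15.1 against 27.0%).

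The 3'UTRs of the 560 genes had a median length of 2006 nt, against 2988 nt in the other 1547 genes with pure 3'UTR peaks, and they had a median of 3 joined ends against 2. These values follow in part from the rule, since genes with short 3'UTRs or many ends have more of their sequence within 150 nt of an end. A peak in the CDS was present in 50.4% (46.1 to 54.6) of them and in 41.8% (39.4 to 44.3) of the others. The median number of exonic peaks per gene was 3 against 2, and its part in this difference was not tested. In 316 genes (56.4%) each pure 3'UTR peak was a near-end peak. Most genes, 494, had a single near-end peak, and 61 genes had such peaks at more than 1 end.

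The highest fold enrichment was seen in PTMA, which encodes the acidic nuclear protein prothymosin alpha. Its peak at chr2:231713147-231713225 had a fold enrichment of 5.24 and 25 steps and began 39 nt downstream of an annotated end, with its midpoint 365 nt before the canonical end. A neighbouring PTMA peak of 158 nt had 4.37-fold enrichment and 34 steps, the highest Score among near-end peaks, a level shared with RPS24. The midpoint of this second peak lay 67 nt after a stop codon. Neither PTMA peak held UGUA or a poly(A) signal.

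PRKCSH, the beta subunit of the glucosidase that trims glycoproteins in the endoplasmic reticulum, followed with 4.59-fold enrichment over 287 nt. Its peak had the lowest deposited p-value of the set, 1.25e-07, and an FDR of 0.218. It held a poly(A) signal 78 nt downstream of the nearest end and before the canonical end. NPM1, a nucleolar chaperone, had a peak of 70 nt with 4.24-fold enrichment, centred 87 nt before its canonical end. Poly(A) signals stood 45 and 63 nt downstream of its nearest end and before the canonical one, outside the peak. SRSF11 and SRSF5, SR splicing factors, had 4.26 and 3.97-fold enrichment with midpoints 1438 and 2246 nt before the canonical end. ATAD1, an ATPase of the outer mitochondrial membrane, had 4.03-fold and CMSS1 4.06-fold enrichment. SET, a histone chaperone and inhibitor of protein phosphatase 2A, had 3.94-fold enrichment over 250 nt with 3 copies of UGUA. SRP14, a subunit of the signal recognition particle, had 3.86-fold, and PSME3IP1 3.82-fold enrichment, both with midpoints within 14 nt after a stop codon.

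By Score, the near-end peaks of RPS24, a small-subunit ribosomal protein, NUCB2, a calcium-binding protein, and CALR, a chaperone of the endoplasmic reticulum, stood beside PTMA with 34, 29 and 28 steps. The RPS24 peak was high but of moderate fold enrichment (2.19), and it lay 18 nt before the canonical end with a poly(A) signal inside. The CALR peak (2.46-fold) overlapped an exon of a gene on the opposite strand, and without strand in the list these cannot be told apart. Such an overlap was present for 35 of the 640 peaks, and 22 lay in 3'UTRs of both strands.

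Several of these genes have processed copies in the genome. Pseudogenes named after the gene numbered 12 for PTMA, 49 for NPM1, 19 for SET, 14 for RPS24 and 5 for SRP14. At least 1 such copy was annotated for the genes of 23.6% (20.4 to 27.1) of the near-end peaks and 17.5% (16.2 to 18.9) of the other pure 3'UTR peaks. How reads with several matches were handled is not given in the sources used here, and the part of such reads in these peaks was not tested.

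Of the genes with several near-end peaks, 10 had 3 and a further 2 had 4. NAP1L1, a histone chaperone, had 4, with fold enrichments of 2.75 to 3.56, and each held a poly(A) signal. Their distance to the canonical end ranged from 10219 to 12610 nt in the reference. HMGB1, a chromatin protein, also had 4 peaks, with 1.84 to 3.56-fold enrichment, of which 3 held UGUA. ARPP19, an inhibitor of protein phosphatase 2A in mitosis, had 3 peaks of 2.84 to 3.48-fold enrichment. KHSRP, an RNA-binding protein of AU-rich mRNA decay, had 3 peaks of 2.28 to 2.95-fold enrichment.

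Gene lists were read against the 12.8% of genes with an exonic peak that had a near-end peak. SR and hnRNP splicing factors were above it, with 9 of 21 genes (42.9%; 21.8 to 66%). Their 14 near-end peaks had 5 or more steps each and a median fold enrichment of 2.50, 8 held UGUA, and none lay at a canonical end. The highest were those of SRSF11 and SRSF5, followed by HNRNPC, an hnRNP that binds U-rich RNA, with 2.75-fold enrichment. HNRNPA1, a member with 74 named pseudogenes, had a pair of peaks.

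The other lists stood nearer to the background or had few genes. Translation initiation factors had near-end peaks in 5 of 20 genes (25%; 8.66 to 49.1), led by EIF3J, a factor associated with eIF3, with 3.19-fold enrichment, EIF2B1, a subunit of the exchange factor of eIF2, with 2.28-fold, and EIF1, a start codon selection factor, with 2.26-fold. The list of proteasome genes had 1 of 13, PSMD10, which encodes a chaperone of proteasome assembly, with 2.27-fold enrichment. Cytosolic ribosomal proteins had 1 of 10, RPS24. Replication-dependent histones, whose mRNAs end in a stem-loop and not a poly(A) tail, had an exonic peak in none of 68 genes.

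Among cleavage and polyadenylation factors, 1 of 14 genes had a near-end peak (7.14%; 0.181 to 33.9). This was CLP1, a subunit of cleavage factor II, with a peak of 65 nt that reached the lowest fold enrichment of the list, 1.17, and 1 step, 6 nt before its canonical end. The end is shown because the peak lies over its poly(A) signal.
CLP1 end, chr11:57661835-57661864, plus strand: tcattttAATAAAtatttttgccatatcat

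None of the 14 ubiquitin-conjugating E2 genes with an exonic peak, the family of UBE2D3, had a near-end peak (upper bound 23.2%), and 7 of them had a pure 3'UTR peak. Of 12 genes that the study names and that had an exonic peak, 1 had a near-end peak. This was RUNX1, a transcription factor of blood development, whose peak of 129 nt at chr21:34791749-34791877 had 2.21-fold enrichment and 15 steps, and held a poly(A) signal. It lay 27 nt before an annotated end and 4012 nt before the canonical end.

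The limit of 150 nt fell between similar peaks. The outermost near-end peaks were those of DMTF1, a transcription factor (150 nt upstream, 2.18-fold), and PRC1, a cytokinesis protein (150 nt downstream, 2.37-fold). The first peaks outside included those of UBN1, a subunit of a histone chaperone complex (151 nt upstream, 2.09-fold), and NCOR1, a nuclear receptor corepressor (151 nt downstream).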

How the data were processed

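Per the labels, the cells were irradiated with UV-C light, lysed and treated with RNase I. The authors trimmed the reads of 1 replicate with fastp, collapsed duplicates that shared a molecular identifier, set ribosomal reads aside, mapped what remained to hg38 and called peaks with MACS2; the aligner and the use of the input as control are not given in the sources used here. Fold enrichment was deposited as a ratio over the local background, p-value and FDR (a q-value) were deposited as the peak caller gave them, and Score was deposited with no stated unit. The deposited positions carry no strand, so a peak was given to a gene by its midpoint.

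Ends of transcripts lacking a complete 3' end (tag mRNA_end_NF) were left out, and 3'UTRs were those of all transcripts. Position 0 is the last base of a transcript. Motifs were read from the hg38 reference on the gene strand, overlaps included. UGUA (TGTA in the reference) and the poly(A) signals can share bases and were counted separately. The steps were tested on simulated data. No p-value was computed across peaks. Sequences were read with pysam 0.24.0, intervals computed with scipy 1.17.1, tables handled with pandas 2.3.3 and numpy 2.4.6 in Python 3.11.15, and plots drawn with matplotlib 3.10.9. The peaks examined and the gene lists were chosen with earlier results of these data known. Genes were named by rule: the 12 highest fold enrichments among peaks of 5 or more steps, the 5 highest Scores, the 5 genes with most near-end peaks (1 of them is not reported here), the study's genes and cleavage factors, the peaks on either side of 150 nt and up to 3 examples per list. Alternatives covered peak strength, the transcripts and ends counted, the distance, merging of peaks and the motif windows. The canonical ends were set apart after seeing the data.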

Additional observations from a re-analysis of the deposited data

Results flagged for a closer look

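On sequences outside the main chromosomes, which the comparisons did not use, the list held 6 peaks on 4 sequences, of which 3 had 5 or more steps, with 27 as the highest. No control library was used here to set them against, and they were not assigned to genes.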

How the results depend on the processing

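With peaks of 5 or more Score steps, 19.9% of pure 3'UTR peaks were near ends and 38.4% of the near-end peaks held UGUA. At a fold enrichment of 2 or more, 371 peaks remained near ends (20.2% of pure 3'UTR peaks), the density ratio was 1.51 and 40.7% held UGUA. With the ends of decay transcripts counted, 19.97% were near ends. With 1 transcript per gene there were 169 near-end peaks (4.89%), a density ratio of 1.04, UGUA in 50.9% of peaks and at 40.8% of ends, and a poly(A) signal at 85.8% of ends. Within 50 nt there were 232 peaks (6.15%), a ratio of 1.21 and a signal at 29.3% of ends. Within 300 nt there were 1078 peaks (28.6%), a signal at 40.2% of ends and 18.4% of peaks at the most distal end. Peaks extended by 50 nt held UGUA in 66.4% and the central 48 nt in 24.1%. A window of 1 to 150 nt gave UGUA at 56.4% of ends. At canonical ends, chosen after seeing the data, UGUA was in 50.6% of peaks and at 41.1% of ends, and a signal at 87.9% of ends. Among genes with a pure 3'UTR peak, 26.6% had a near-end peak. These values follow from the alternatives' own construction, or their cause was not tested.

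The other 52 values moved by less than their counting interval or, for counts, stayed within 1.5 times. The shares of ends with UGUA and with a signal were lower with a peak than without under each alternative except the signal with 1 transcript per gene or canonical ends only. No pure 3'UTR peak had an FDR under 0.05, so that alternative gave no value, and 1 transcript per gene gave none for the most distal end. No paired analysis was possible because there was 1 antibody library. Depth was unknown, so a missing peak does not show a missing contact.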
